A study of Mus musculus with 8 samples.

Results

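The endoplasmic reticulum (ER) secretory machinery was followed here as 33 genes chosen by name, of 52636 genes in the deposited count table. They comprised 8 chaperones, 3 J-domain co-chaperones, 3 disulphide isomerases, 6 genes of the translocon, 4 of the signal peptidase, 7 of ER-associated degradation and 2 sensors of the unfolded protein response. All 33 passed the filter on low counts. RNA was sequenced from spleens of C57BL/6 mice aged 6 weeks, with 2 libraries in each of 4 groups. The groups were Lmna R527C mutants 7 days after 4 Gy of irradiation, wild type 7 days after 4 Gy, unirradiated Lmna R527C mutants at day 0 and unirradiated wild type at day 0. Lmna encodes lamin A and lamin C of the nuclear lamina, and the design text gives the study's purpose as learning how the mutation leads to senescence. The labels do not say whether the mutation was carried on 1 or both alleles, nor whether the libraries of a group came from separate mice. The p-values below therefore measure only the spread between these libraries, which may be technical.

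Proteins bound for secretion enter the ER through the translocon, lose their signal peptide to the signal peptidase, and fold with the help of chaperones and disulphide isomerases. Proteins that fail to fold are passed back to the cytosol and destroyed, which is called ER-associated degradation. The unfolded protein response raises the supply of these components through the sensors Ire1 (gene Ern1), Atf6 and Perk, and in the spleen its Ire1 and Xbp1 branch is best known from plasma cells, which secrete antibodies. In whole spleen RNA, fewer cells of a type and less RNA per cell cannot be told apart.

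Several of these genes are classic targets of the unfolded protein response, which acts through short promoter elements, so the promoters that hold such an element are shown before the levels. The letters searched, on both strands, were CCAAT and CCACG separated by any 9 bases for the ER stress response element (ERSE), and ATTGG and CCACG separated by any 1 base for ERSE-II. The 2 motifs can overlap, because both hold CCACG and the reverse complement of CCAAT is ATTGG. RefSeq promoter windows (GRCm38.p6, 250 bases before to 50 after each annotated start) were found for 25 of the 33 genes. ERSE was present in 9 of these 25 genes, or 36%, against 0.137% of all 27025 genes with a window. ERSE-II was present in 2, or 8%, against 0.0444% of all such genes. The list was chosen by name with classic targets in it, and its genes are counted among all genes. These shares are therefore a description and not a test. A match describes letters in the window, not a bound site, and a window without a match says nothing about the factor.

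The 250 bases upstream of the start are given for 5 genes whose levels are described below, in lower case with the fixed letters of each element in capitals. Hspa5, the central ER chaperone, is from chr2:34771840-34772089, plus strand. Hsp90b1 is from chr10:86705445-86705694, minus strand, and holds 2 matches. Syvn1 is from chr19:6046326-6046575, plus strand. Derl3 is from chr10:75893148-75893397, plus strand. Ssr1, from chr13:37994209-37994458, minus strand, is shown as a gene with no match, so it has no capitals.
Hspa5: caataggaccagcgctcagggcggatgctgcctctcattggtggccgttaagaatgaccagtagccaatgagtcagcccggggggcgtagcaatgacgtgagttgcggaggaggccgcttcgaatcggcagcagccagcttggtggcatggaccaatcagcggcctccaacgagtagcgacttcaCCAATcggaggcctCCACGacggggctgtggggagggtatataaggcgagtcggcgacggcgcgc
Hsp90b1: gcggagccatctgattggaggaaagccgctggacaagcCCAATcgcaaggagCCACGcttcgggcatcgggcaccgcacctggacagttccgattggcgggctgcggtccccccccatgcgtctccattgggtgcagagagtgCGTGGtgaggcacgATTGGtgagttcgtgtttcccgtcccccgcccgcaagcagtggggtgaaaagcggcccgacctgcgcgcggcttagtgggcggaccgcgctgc
Syvn1: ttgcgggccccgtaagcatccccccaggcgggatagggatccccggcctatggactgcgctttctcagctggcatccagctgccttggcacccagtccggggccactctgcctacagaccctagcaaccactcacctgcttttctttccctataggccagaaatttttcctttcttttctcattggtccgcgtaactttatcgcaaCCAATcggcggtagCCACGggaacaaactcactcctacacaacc
Derl3: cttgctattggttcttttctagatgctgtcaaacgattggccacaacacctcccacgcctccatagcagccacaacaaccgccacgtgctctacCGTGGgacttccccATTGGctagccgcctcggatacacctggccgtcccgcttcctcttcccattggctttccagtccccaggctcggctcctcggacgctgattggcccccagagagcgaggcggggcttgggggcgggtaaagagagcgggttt
Ssr1: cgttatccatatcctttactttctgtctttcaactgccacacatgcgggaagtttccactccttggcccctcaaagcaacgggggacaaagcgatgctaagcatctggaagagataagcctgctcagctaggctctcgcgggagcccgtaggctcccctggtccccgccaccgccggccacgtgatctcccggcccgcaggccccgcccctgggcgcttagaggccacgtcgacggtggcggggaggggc

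The other genes with a match are shown by the element and up to 20 bases on each side, with the same use of capitals, so that its orientation and spacer can be compared. Calr and Creld2 carry it in the opposite orientation, as does Derl3. Dnajb11's ERSE-II lies after the start, so the element alone is shown.
Calr (chr8:84847055-84847113, minus strand): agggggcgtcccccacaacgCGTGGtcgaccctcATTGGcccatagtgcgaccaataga
Canx (chr11:50325780-50325838, minus strand): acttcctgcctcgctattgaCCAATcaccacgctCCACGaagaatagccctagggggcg
Creld2 (chr15:88819500-88819558, plus strand): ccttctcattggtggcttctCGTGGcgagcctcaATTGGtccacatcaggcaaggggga
Dnajc3 (chr14:118937807-118937865, plus strand): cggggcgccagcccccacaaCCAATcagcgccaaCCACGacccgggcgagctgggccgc
Pdia6 (chr12:17266471-17266529, plus strand): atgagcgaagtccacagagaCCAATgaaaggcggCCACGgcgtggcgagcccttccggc
Herpud1 (chr8:94386357-94386407, plus strand): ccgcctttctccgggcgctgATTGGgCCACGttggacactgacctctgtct
Dnajb11 (chr16:22857852-22857862, plus strand): ATTGGcCCACG

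**Figure D1:**
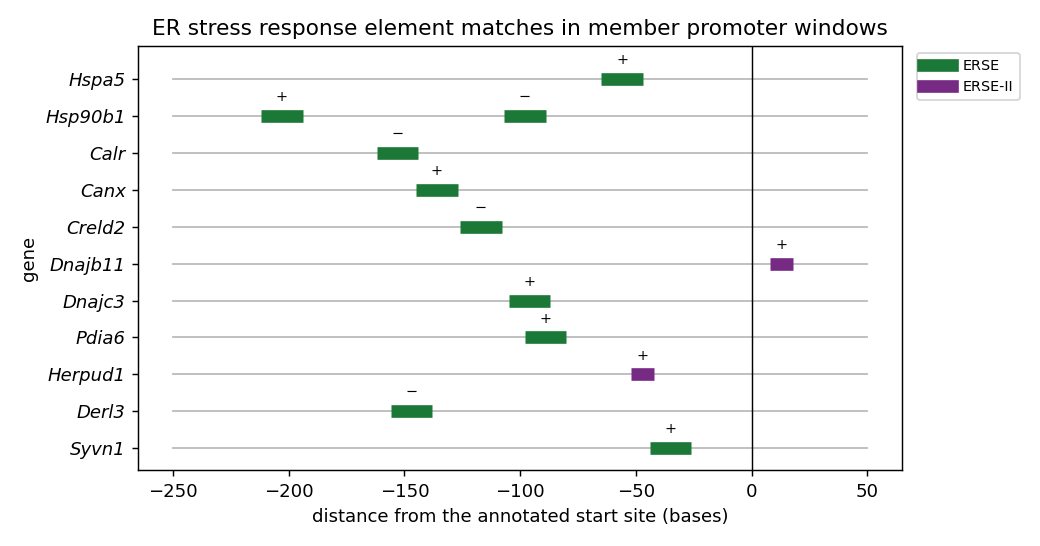
Position of each ERSE (green) and ERSE-II (purple) match in the promoter windows of 11 genes, in bases from the annotated start site, with + for the gene's own strand and − for the opposite strand. The matches lie upstream of the start, the one nearest to it being that of Syvn1 at -44 to -26, except that of Dnajb11 at 8 to 18.

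Levels are given as counts per 1000000 counts of the library (CPM), with library sizes scaled by TMM (the trimmed mean of M values), and levels of different genes are set side by side only as CPM per kilobase of exon. Averaged over the 8 libraries, the chaperone Hsp90b1 (Grp94) had the highest level of the 33 genes, at 181 CPM per kilobase. The lectin chaperone Calr followed at 149.9, the translocon subunit Sec61b at 142, the isomerase Pdia3 at 134 and Hspa5 (BiP) at 127 CPM per kilobase. Gene positions below are those of GENCODE M21 on GRCm38. The lowest levels were those of both sensors, 7.02 for Atf6 and 4.13 CPM per kilobase for Ern1, with the degradation genes Derl2 at 7.72 and Sel1l at 10.3 just above them. The machinery thus ran from abundant chaperones and translocon subunits to scarce sensors.

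Spread over libraries also differed between genes. The highest CPM of a library was 6.52 times the lowest for Derl3, which takes part in moving failed proteins out of the ER, 3.76 times for Edem1, which acts on the sugars of misfolded glycoproteins, and 3.16 times for Pdia4. It was 1.34 times for Sec11c, a catalytic subunit of the signal peptidase. The sum over the 33 genes was 6046 and 7679 CPM in irradiated mutants, 6336 and 6342 CPM in irradiated wild type, 6357 and 6667 CPM in unirradiated mutants, and 4601 and 5604 CPM in unirradiated wild type. Both unirradiated wild-type libraries lay below the other 6 in this sum, in which the most abundant genes weigh most. By the median log2 CPM of the 33 genes, replicate 1 of unirradiated wild type was lowest, at 6.61. Replicate 2 of that group, at 7.06, lay above replicate 1 of irradiated mutants (6.66) and of unirradiated mutants (6.99). The plot of all genes by library shows which genes carry the sum.

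**Figure D2:**
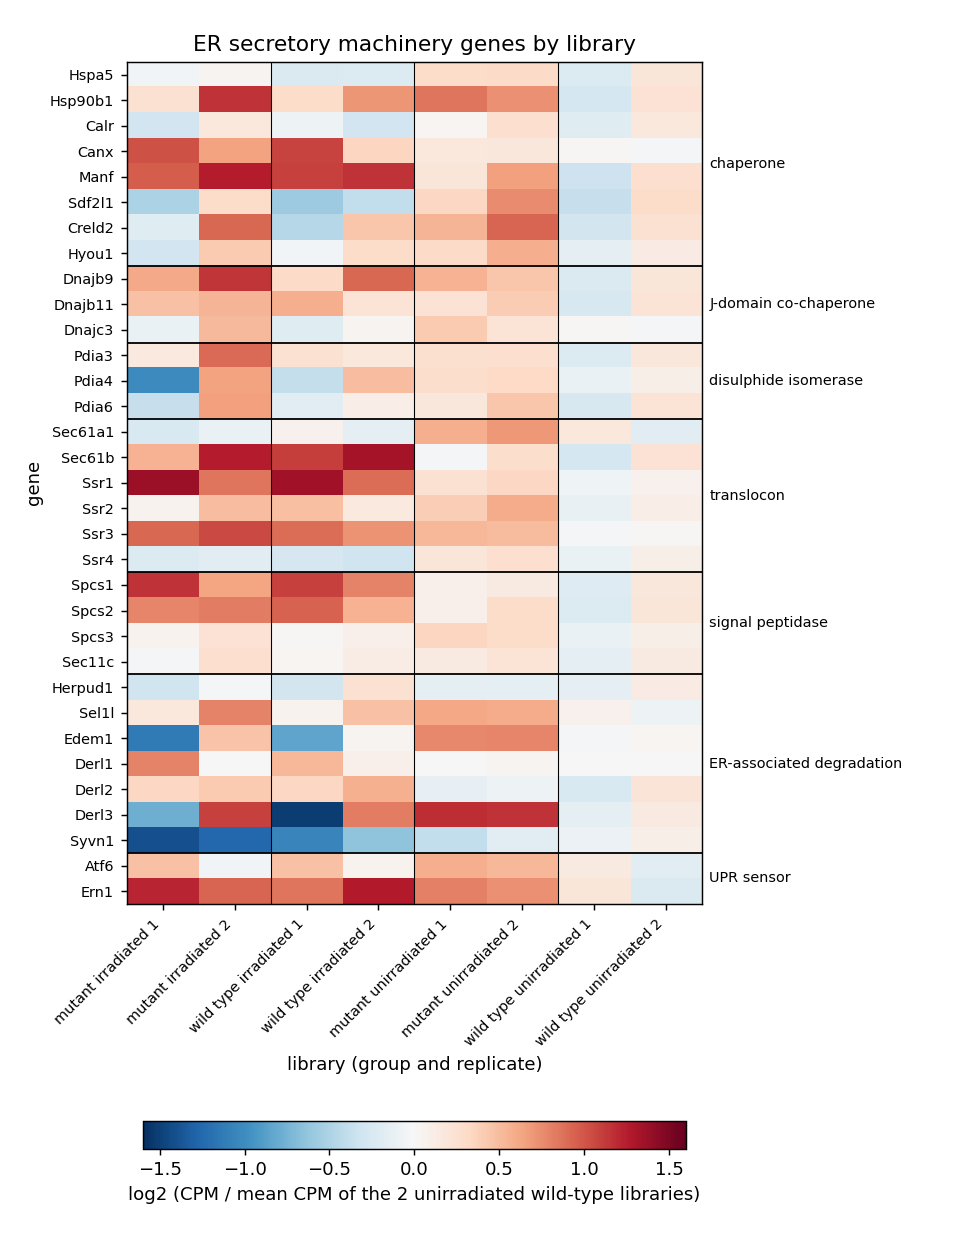
Each row is a gene, grouped by role, and each column a library. Colour is the log2 of its CPM over the mean CPM of the 2 unirradiated wild-type libraries. Ssr1, Sec61b, Manf and Ern1 are red in irradiated libraries, Syvn1 is blue there, and Derl3, Edem1 and Pdia4 differ in colour between the replicates of the irradiated groups.

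The libraries held 12100784 to 19455470 counts, so a floor of 3 counts stood at 0.131 to 0.350 CPM, which covers counting error only and lies far below every value given for these genes. Libraries stood apart in ways that bear on what follows. Replicates differed by more than 2-fold for 43.2% of all genes tested in irradiated mutants, 27.3% in irradiated wild type, 4.23% in unirradiated mutants and 6.75% in unirradiated wild type. Xist, the transcript of the inactive X, was at 1029 to 1776 CPM in all 4 irradiated libraries and at 0 to 0.262 CPM in the unirradiated ones. The Y-linked genes had 0 counts in all irradiated libraries and summed to 264 to 299 CPM in unirradiated ones. Sex-linked transcripts thus moved with irradiation, so irradiation and sex cannot be told apart in any comparison of irradiated with unirradiated libraries. All irradiated libraries are also from day 7 and all unirradiated ones from day 0. Irradiation and day therefore cannot be told apart in these comparisons either. Ssr4 is X-linked.

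Cell type markers moved with the groups too. The sum of 18 plasma cell markers, led by Igkc, Ighm and Igha with none at 0, was 8058 and 17668 CPM in irradiated mutants, 4109 and 12961 CPM in irradiated wild type, 21320 and 23396 CPM in unirradiated mutants, and 9205 and 11463 CPM in unirradiated wild type. The 11 B cell markers, none at 0, summed to 93.6 to 1330.2 CPM in irradiated mutants, 886 to 1712 in irradiated wild type, 2903 to 2944 in unirradiated mutants and 4558 to 5609 in unirradiated wild type. The 8 erythroid markers, none at 0, summed to 136679 and 12181 CPM in irradiated mutants, 56436 to 66378 in irradiated wild type, 17436 to 18045 in unirradiated mutants and 23430 to 39906 in unirradiated wild type. The spleen's own cell types were thus present in all libraries, with sums that differed between groups. The 14 granulocyte markers, of which 2 were at 0 in replicate 1 of irradiated wild type, summed to 234 to 278 CPM in irradiated mutants, 95.8 to 221 in irradiated wild type, 6331 to 12617 in unirradiated mutants and 1597 to 1864 in unirradiated wild type. The 14 macrophage markers, of which 1 was at 0 in replicate 2 of irradiated wild type, summed to 3164 to 3537 CPM in irradiated mutants, 1161 to 1695 in irradiated wild type, 1220.3 to 1471 in unirradiated mutants and 1179 to 1269 in unirradiated wild type. The 9 markers of fibroblasts and stroma, none at 0, summed to 461 to 1755 CPM in irradiated mutants, 359 to 878 in irradiated wild type, 200.1 to 236 in unirradiated mutants and 345 to 401 in unirradiated wild type. Markers of neighbouring tissue were mostly lower. The 19 hepatocyte genes, led by Alb, summed to 164 to 630.5 CPM in irradiated mutants and 131 to 146 in irradiated wild type with none at 0, and to 12.3 to 17.5 in unirradiated mutants and 12.05 to 18.7 in unirradiated wild type, with 9 and 11 at 0 in both libraries. The 10 adipocyte genes, led by Cfd, summed to 87.8 to 1011 CPM in irradiated mutants, 14.1 to 112 in irradiated wild type, 6.19 to 52.4 in unirradiated mutants and 11.8 to 128 in unirradiated wild type. Pancreatic acinar cells also carry much ER machinery, and their 19 genes stayed low, mostly from Cela1. They summed to 11.5 to 68.3 CPM in irradiated mutants, 19.3 to 36.1 in irradiated wild type, 28.0 to 38.6 in unirradiated mutants and 23.0 to 29.0 in unirradiated wild type, with 4, 13, 2 and 9 genes at 0 in both libraries of the group. The part of any of these cell types in the results was not tested.

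Between unirradiated mutant and unirradiated wild-type spleens, most of the machinery lay on the mutant side without a gene passing the test. The log2 fold change (mutant over wild type) was above 0 for 30 of 33 genes, with a median of 0.32, against a median of -0.02 and 46.7% above 0 over all 17327 genes tested. Herpud1, Derl2 and Syvn1 were the exceptions. The median was 0.20 without replicate 1 of unirradiated wild type and 0.48 without replicate 2 of that group. By edgeR's quasi-likelihood test with Benjamini-Hochberg adjustment over all genes, 0 of the 33 genes passed 0.05, and the background was 0% of all genes. At an unadjusted edgeR p under 0.05 there were 2 genes higher and 0 lower, against 1.8% and 0.439% of all genes. DESeq2 called 0 of them, against 0.377% of all genes higher and 0.00639% lower. The libraries of the groups did not overlap for 22 genes higher and 2 lower in mutants, against 20.8% and 25% of all genes. The summed plasma cell and granulocyte markers were also higher in mutants here, as given above. Those of B cells, erythroid cells and fibroblasts and stroma were lower. The part of these cell types in these values was not tested.

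By role, all 8 chaperones, 3 isomerases, 3 co-chaperones, 6 translocon genes, 4 signal peptidase genes and both sensors had log2 fold changes above 0. Their medians were 0.45 for chaperones, 0.30 for isomerases, 0.32 for co-chaperones, 0.39 for the translocon and 0.18 for the signal peptidase. The degradation genes were split, with 4 of 7 above 0 and a median of 0.02.

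Among the sensors, Ern1 (chromosome 11, 106394650 to 106487852), the kinase and ribonuclease that splices Xbp1 mRNA, had 34.1 and 32.3 CPM in unirradiated mutants and 22.4 and 16.6 CPM in unirradiated wild type. Both mutant libraries lay above both wild-type ones. Its log2 fold change was 0.77 ± 0.29 (SE), with an unadjusted p of 0.0313 and an adjusted p of 1 by edgeR. Atf6 (chromosome 1, 170704674 to 170867771), which is cut in the Golgi to release a transcription factor, had 79.5 and 77.0 CPM in mutants and 59.1 and 47.6 CPM in wild type. The groups again did not overlap, and the log2 fold change was 0.55 ± 0.30 (edgeR adjusted p of 1). Hspa5 (chromosome 2, 34771970 to 34777547), which holds the sensors inactive when it is not busy, had 645 and 649.9 CPM in mutants and 451 and 603 CPM in wild type. Its wild-type libraries differed by more than its mutant ones, and the log2 fold change was 0.30 ± 0.32 (edgeR adjusted p of 1). Hsp90b1, chosen for its promoter shown above and its level, had 899 and 829 CPM in unirradiated mutants and 411 and 586 CPM in unirradiated wild type. It was apart by 0.79 ± 0.42 on the log2 scale, with an unadjusted p of 0.0959 and an adjusted p of 1 by edgeR.

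Sec61a1 (chromosome 6, 88503579 to 88518905), the channel subunit of the translocon, had 115 and 124 CPM in unirradiated mutants, against 86.0 and 67.5 CPM in unirradiated wild type. The libraries did not overlap, and the log2 fold change was 0.64 ± 0.27, with an unadjusted p of 0.0469 and an adjusted p of 1 by edgeR. Sel1l (chromosome 12, 91806043 to 91849157), the scaffold of the ubiquitin ligase that Syvn1 forms, had 105 and 102 CPM in mutants and 71.7 and 64.5 CPM in wild type. Here too the groups were apart, by 0.60 ± 0.32 on the log2 scale, with an edgeR adjusted p of 1.

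Derl3 and Edem1, named after their values were seen, passed in some fits of this comparison. Derl3 had 34.7 and 33.8 CPM in unirradiated mutants and 13.6 and 16.8 CPM in unirradiated wild type. Its log2 fold change was 1.17 ± 0.77 with an adjusted p of 1 in the edgeR fit of all 8 libraries, whose error also takes in its irradiated replicates. An edgeR fit of the 4 unirradiated libraries alone gave 1.20 ± 0.18 with an adjusted p of 0.0062, and limma-voom with library weights gave 1.19 with an adjusted p of 0.0430. Edem1 had 272 and 273 CPM in mutants and 156 and 163 CPM in wild type. The unirradiated libraries alone gave it 0.80 ± 0.15 with an edgeR adjusted p of 0.0203, against 0.78 ± 0.53 and an adjusted p of 1 in the fit of all libraries. In that fit of 4 libraries 2.27% of all genes were called higher and 0.546% lower, and by limma-voom 1.89% and 0.387%.

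**Figure D3:**
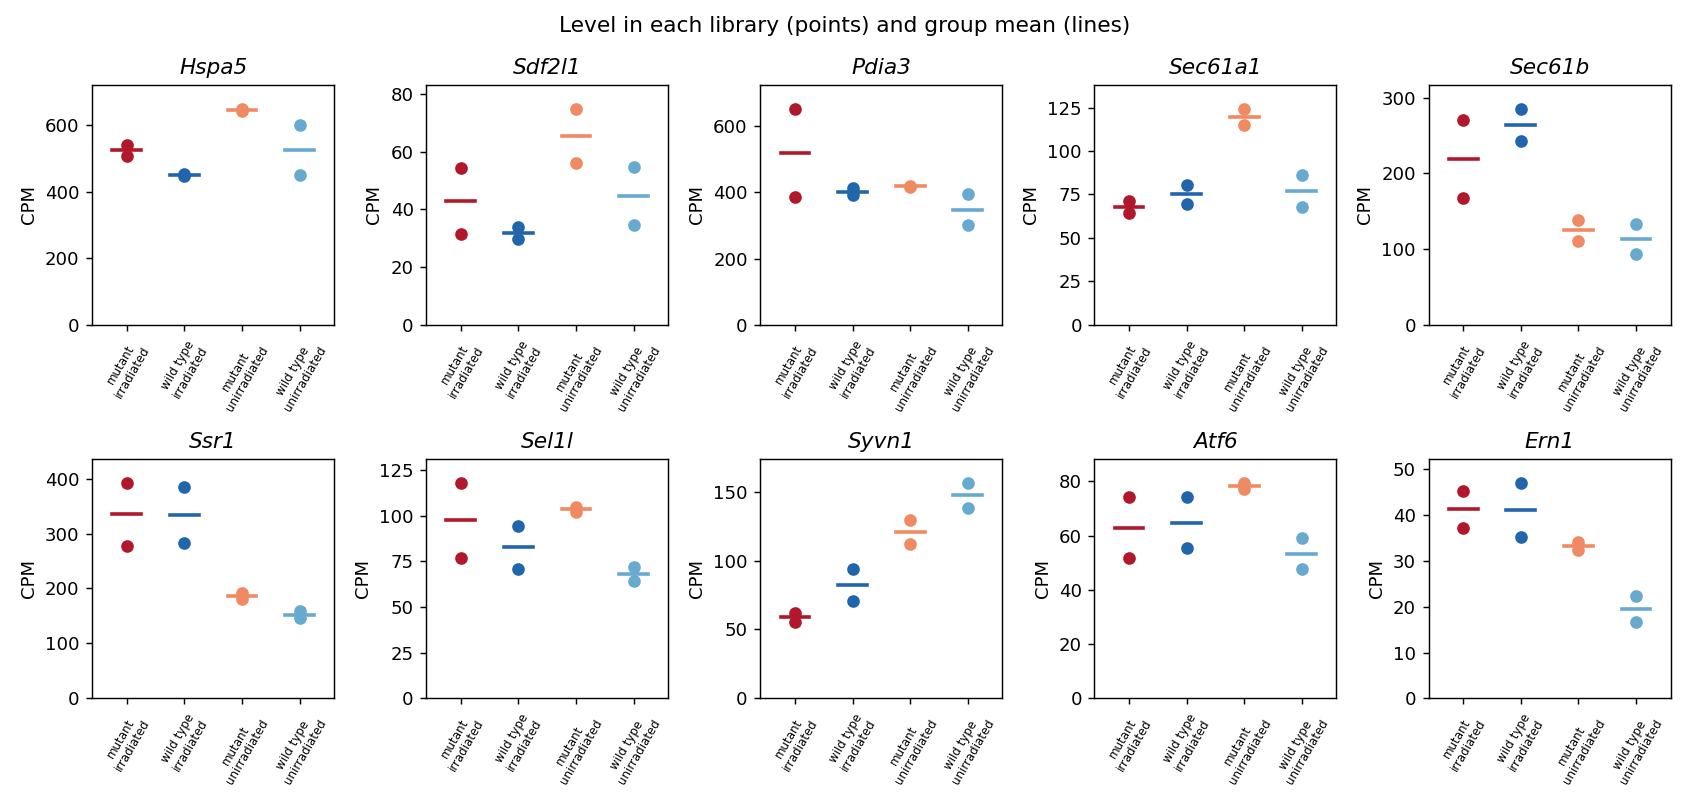
CPM of 10 genes in each library (points), with the mean of each group (lines). Ern1 and Sec61a1 are higher in unirradiated mutants than in unirradiated wild type with no overlap, Ssr1 and Sec61b are higher in all irradiated libraries than in unirradiated ones, and Syvn1 is lower in them.

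At 7 days after irradiation the machinery lay on both sides of 0 between the genotypes. The log2 fold change (irradiated mutant over irradiated wild type) was above 0 for 22 of 33 genes with a median of 0.09, against 0.02 and 51.6% over all genes. With edgeR 0 genes passed, as did 0% of all genes, and 0 had an unadjusted p under 0.05, against 3.36% of all genes higher and 0.652% lower. DESeq2 and limma-voom each called 0 of the 33, against 0.447% of all genes higher and 0.0192% lower by DESeq2 and 0% by limma-voom. Groups did not overlap for 3 genes higher and 1 lower, against 10.4% and 7.46% of all genes. The median turned to -0.16 when replicate 2 of the irradiated mutants was left out, so its sign rests on that library.

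Syvn1 (chromosome 19, 6046576 to 6053712), the ubiquitin ligase Hrd1 of ER-associated degradation, had the smallest p of the set in this comparison. It had 55.7 and 61.8 CPM in irradiated mutants and 70.8 and 94.0 CPM in irradiated wild type, without overlap. The log2 fold change was -0.49 ± 0.29, with an unadjusted p of 0.128 and an edgeR adjusted p of 1. Sdf2l1 (chromosome 16, 17130138 to 17132383), a partner of Hspa5 and its J-domain proteins, had 31.4 and 54.5 CPM in irradiated mutants and 29.7 and 33.9 CPM in irradiated wild type. Its groups overlapped, and the log2 fold change of 0.43 ± 0.37 became -0.08 without replicate 2 of the irradiated mutants. Pdia3 (chromosome 2, 121413775 to 121438687), the isomerase that works with Calr and Canx on glycoproteins, had 387 and 653 CPM in irradiated mutants and 412 and 393 CPM in irradiated wild type. It overlapped as well, and its 0.37 ± 0.36 became -0.12 without the same library. Both had an edgeR adjusted p of 1. Ern1 had 45.3 and 37.3 CPM in irradiated mutants and 35.2 and 47.1 CPM in irradiated wild type, a log2 fold change of 0.00 ± 0.29, and Hspa5 had 509 and 542 CPM against 449 and 452 CPM, a log2 fold change of 0.22 ± 0.32. Atf6 had 74.0 and 51.8 CPM in irradiated mutants and 74.1 and 55.4 CPM in irradiated wild type, a log2 fold change of -0.04 ± 0.30.

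In wild type, part of the translocon, Manf and Ern1 were higher and Syvn1 was lower in irradiated than in unirradiated spleens by DESeq2, but not by edgeR. The log2 fold change (irradiated over unirradiated) was above 0 for 23 of 33 genes with a median of 0.21, against 0.09 and 54.2% over all genes. With edgeR 0 of 33 genes passed, against 0.0577% of all genes. At an unadjusted edgeR p under 0.05, 7 genes were higher and 1 lower, against 8.69% and 8.57% of all genes. DESeq2 called 5 higher and 1 lower, with 2.74% and 4.23% of all genes called in those directions, and limma-voom called 0, against 2.29% and 1.16%. The groups did not overlap for 14 genes higher and 3 lower, against 29.7% and 27.8% of all genes. As shares of the 33 genes, DESeq2's calls were 15.2% higher and 3.03% lower, and the genes without overlap 42.4% higher and 9.09% lower. By these 2 measures the higher shares lay above those of all genes, as a description with no test. The lower share without overlap lay below that of all genes, while DESeq2's lower share was 1 gene. By limma-voom the shares lay below those of all genes. An edgeR fit of the compared libraries alone also called 0 of 33, against 3.62% higher and 3.34% lower.

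The translocon genes split. Sec61b (chromosome 4, 47474658 to 47483242), the small beta subunit of the channel, had 244 and 286 CPM in irradiated wild type and 93.6 and 134 CPM in unirradiated wild type. The groups did not overlap, with a log2 fold change of 1.22 ± 0.37, an adjusted p of 0.189 by edgeR and of 0.0410 by DESeq2. Ssr1 (chromosome 13, 37966605 to 37994217), a subunit of the translocon-associated TRAP complex, had 385 and 282 CPM in irradiated and 146 and 159 CPM in unirradiated wild type. It too was apart, at 1.13 ± 0.34, with an adjusted p of 0.187 by edgeR and of 0.0227 by DESeq2. Its partner Ssr3 was at 294 and 261 CPM in irradiated and 157 and 159.6 CPM in unirradiated wild type, a log2 fold change of 0.81 ± 0.29 (adjusted p of 0.234 by edgeR and 0.0390 by DESeq2). The partner Ssr4 was instead at 64.4 and 62.1 CPM in irradiated and 71.97 and 82.7 CPM in unirradiated wild type, at -0.29 ± 0.25, and the channel subunit Sec61a1 was at 80.7 and 69.7 CPM against 86.0 and 67.5 CPM, at -0.03 ± 0.27. The estimates for subunits of the same complexes thus differed in sign. Neither Ssr4 nor Sec61a1 passed either test, so their signs are not settled. Ssr4 is also X-linked, and irradiation and sex cannot be told apart here. Ssr3, Ssr4 and the next genes were named after their values were seen.

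Of the signal peptidase, Spcs1 had 184 and 149 CPM in irradiated and 74.7 and 97.4 CPM in unirradiated wild type, a log2 fold change of 0.95 ± 0.32 (adjusted p of 0.217 by edgeR). Spcs2 was at 312 and 238 CPM against 139.5 and 185 CPM, at 0.76 ± 0.32 (adjusted p of 0.279 by edgeR). Their groups did not overlap, while Spcs3 and Sec11c had log2 fold changes of 0.05 and 0.07. Exons of Spcs1 share 16.3% of their length with Glt8d1, and the sources used here do not state the strand used in counting, so some of its reads could belong to that gene.

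Chaperones did not move as one. Manf, a small secreted ER protein that responds to stress, had 253 and 266 CPM in irradiated and 94.7 and 143 CPM in unirradiated wild type, a log2 fold change of 1.13 ± 0.35 (adjusted p of 0.193 by edgeR and 0.0389 by DESeq2). Hspa5 had 449 and 452 CPM in irradiated and 451 and 603 CPM in unirradiated wild type, at -0.23 ± 0.32. The irradiated libraries of Hspa5 lay at the level of the lower unirradiated one. Sdf2l1 had 29.7 and 33.9 CPM in irradiated and 34.4 and 54.6 CPM in unirradiated wild type, at -0.48 ± 0.37, and neither passed either test.

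Ern1 had the smallest p of the set here, at 35.2 and 47.1 CPM in irradiated and 22.4 and 16.6 CPM in unirradiated wild type. The log2 fold change was 1.08 ± 0.29, with an unadjusted p of 0.00669 and an adjusted p of 0.172 by edgeR, and an adjusted p of 0.0448 by DESeq2. Syvn1 went the other way, at 70.8 and 94.0 CPM in irradiated and 138 and 156 CPM in unirradiated wild type, with no overlap. Its log2 fold change was -0.84 ± 0.29, with an adjusted p of 0.221 by edgeR and of 0.0403 by DESeq2. Leaving out either irradiated mutant library, which belongs to neither group compared, gave edgeR calls for 6 genes, Manf, Sec61b, Ssr1, Spcs1 and Ern1 higher and Syvn1 lower. Calls rose for all genes in those fits, to 6.29% higher and 6.72% lower without replicate 1 and to 6.98% and 7.19% without replicate 2. Atf6 was at 74.1 and 55.4 CPM in irradiated and 59.1 and 47.6 CPM in unirradiated wild type, at 0.28 ± 0.30.

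**Figure D4:**
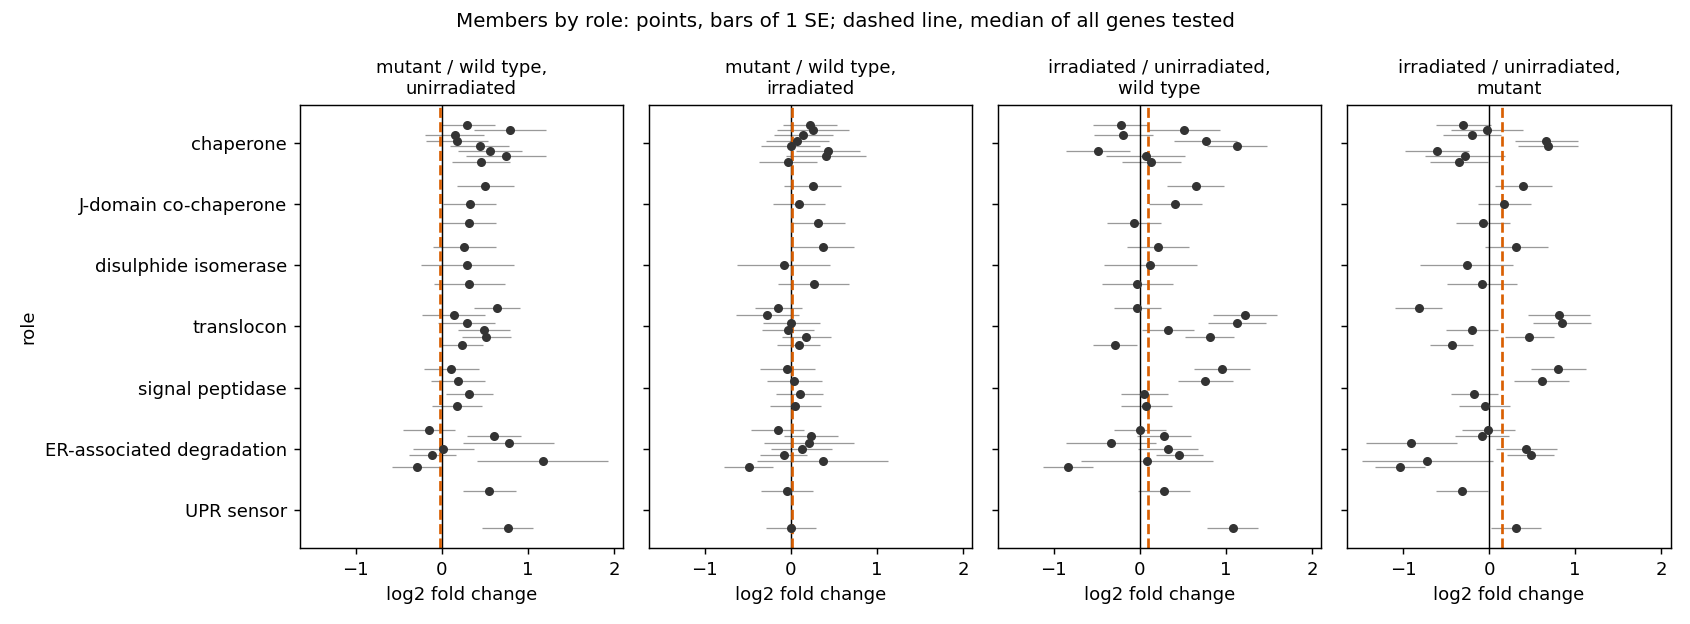
Log2 fold change of each gene (points) with its SE (bars) by role, in 4 panels of 1 comparison each, with a dashed line at the median of all genes tested. In unirradiated mutants over wild type 30 of 33 points lie above 0, and in irradiated over unirradiated spleens the translocon and degradation genes spread to both sides, with the signal peptidase genes all above 0 in wild type and on both sides in mutants.

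In mutants, irradiated spleens showed 13 of 33 genes above 0 and a median log2 fold change (irradiated over unirradiated) of -0.07, against 0.15 and 56.3% over all genes. With edgeR 0 genes passed, against 0.6% of all genes. At an unadjusted edgeR p under 0.05, 2 were higher and 2 lower, against 13.4% and 8.7% of all genes, and DESeq2 called 0 higher and 2 lower, against 6.3% and 5.02%. Limma-voom called 0, against 0.589% higher and 0.104% lower. The groups did not overlap for 11 genes higher and 9 lower, against 26.9% and 25.7% of all genes. This comparison shares its unirradiated or irradiated mutant libraries with the genotype comparisons, so the values are given side by side and not as independent evidence.

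Syvn1 had the smallest p, at 55.7 and 61.8 CPM in irradiated and 112 and 129.6 CPM in unirradiated mutants. The groups were apart with a log2 fold change of -1.04 ± 0.29, an adjusted p of 0.117 by edgeR and of 0.00464 by DESeq2. Sec61a1 had 64.6 and 71.3 CPM in irradiated and 115 and 124 CPM in unirradiated mutants, also apart, at -0.82 ± 0.27 with an adjusted p of 0.154 by edgeR and of 0.0296 by DESeq2. Ssr1 had 393 and 277 CPM in irradiated and 180.2 and 192 CPM in unirradiated mutants, at 0.84 ± 0.33 with an adjusted p of 0.197 by edgeR. Its irradiated libraries both lay above the unirradiated ones, as they did in wild type. Sec61b was at 168 and 271 CPM in irradiated and 111 and 139 CPM in unirradiated mutants, a log2 fold change of 0.81 ± 0.36 (adjusted p of 0.24 by edgeR).

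Ern1 had 45.3 and 37.3 CPM in irradiated and 34.1 and 32.3 CPM in unirradiated mutants, without overlap, at 0.31 ± 0.29. Atf6 had 74.0 and 51.8 CPM in irradiated and 79.5 and 77.0 CPM in unirradiated mutants, at -0.32 ± 0.30. Hspa5 had 509 and 542 CPM in irradiated and 645 and 649.9 CPM in unirradiated mutants, at -0.30 ± 0.32. The irradiated libraries of Atf6 and Hspa5 lay below both unirradiated ones, and none of the 3 passed edgeR, DESeq2 or limma-voom. Sel1l had 76.9 and 118 CPM in irradiated and 105 and 102 CPM in unirradiated mutants, with overlap.

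Leaving out replicate 2 of the irradiated mutants moved this comparison more than any other library did. The median was -0.41 without it, against 0.12 without replicate 1. Without replicate 2, edgeR called 6 genes, with Pdia4, Edem1, Sdf2l1, Sec61a1 and Syvn1 lower and Ssr1 higher, while 11% of all genes were called higher and 13.6% lower. In that fit the irradiated mutants are represented by replicate 1 alone, whose spread is assumed to be that of the other groups.

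The difference between the irradiation effects (mutant minus wild type) was below 0 for 30 of 33 genes, with a median of -0.23 against 0.05 over all genes, of which 54.2% lay above 0. With edgeR 0 genes passed, as did 0% of all genes, and 0 had an unadjusted p under 0.05, against 1.09% of all genes above 0 and 0.508% below. DESeq2 and limma-voom called 0 of the 33, against 0.00577% of all genes above 0 and 0.0173% below by DESeq2 and 0% by limma-voom. The smallest p was that of Sec61a1, whose difference was -0.79 ± 0.39 (unadjusted p of 0.0758, adjusted p of 1 by edgeR), followed by Ern1 at -0.76 ± 0.41 and Atf6 at -0.59 ± 0.43. No irradiation effect on these genes was thus shown to differ between the genotypes. This contrast uses the libraries of the comparisons above, so its sign is not independent of theirs.

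Replicates of the irradiated groups were split for part of the machinery, by a measure that compares only libraries of the same group. In irradiated mutants 13 of 33 genes differed by more than 1.5-fold between replicates, in irradiated wild type 6, in unirradiated mutants 0 and in unirradiated wild type 2. Among all genes tested the same mark was passed by 62.7% in irradiated mutants, 52.9% in irradiated wild type, 13.5% in unirradiated mutants and 17.9% in unirradiated wild type. The machinery was thus split in a smaller share of its genes than all genes were, and more than 2-fold in 5 genes in irradiated mutants and 1 in irradiated wild type. All genes tested were not matched to the 33 for level, and the part of level in this was not tested. In both irradiated groups, replicate 2 was over 1.5-fold higher for Pdia4, Edem1, Creld2 and Derl3, 4 of 33 genes, against 19.7% of all genes. These 4 were named after their values were seen. Replicate 2 was higher in both groups for 19 genes and lower in both for 5, namely Canx, Ssr1, Spcs1, Derl1 and Atf6, against 39.4% and 34.6% of all genes.

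Derl3 had 8.88 and 32.5 CPM in irradiated mutants and 5.32 and 26.9 CPM in irradiated wild type, ratios of replicate 2 to replicate 1 of 3.66 and 5.06. Pdia4, an isomerase, had 99.6 and 315 CPM in irradiated mutants and 155 and 285 CPM in irradiated wild type. Edem1 had 72.6 and 219 CPM in irradiated mutants and 89.0 and 163 CPM in irradiated wild type. In the unirradiated groups their replicates were close, at ratios of 0.976 in mutants and 1.23 in wild type for Derl3. Creld2, an ER protein induced by stress, had 54.1 and 116 CPM in irradiated mutants and 45.1 and 83.9 CPM in irradiated wild type. The summed plasma cell markers had ratios of 2.19 in irradiated mutants, 3.15 in irradiated wild type, 1.10 in unirradiated mutants and 1.25 in unirradiated wild type. Derl3, Pdia4, Edem1 and Creld2 were picked for a higher replicate 2 in both irradiated groups. That they share this direction with the plasma cell sum was therefore set by the choice. Canx, Ssr1, Spcs1, Derl1 and Atf6 went the other way in both groups. Some other marker sums were higher in replicate 2 of both irradiated groups, as the plasma cell sum was. They were 87.8 and 1011 CPM in irradiated mutants and 14.1 and 112 CPM in irradiated wild type for adipocytes, and 93.6 and 1330.2 CPM in irradiated mutants and 886 and 1712 CPM in irradiated wild type for B cells. Those of fibroblasts and stroma were 461 and 1755 CPM in irradiated mutants and 359 and 878 CPM in irradiated wild type. The pancreatic acinar sum was lower in replicate 2, at 68.3 and 11.5 CPM in irradiated mutants and 36.1 and 19.3 CPM in irradiated wild type. So was the sum of 71 other ER pathway genes described below. It was 8838 and 6755 CPM in irradiated mutants and 7822 and 6834 CPM in irradiated wild type. The erythroid, hepatocyte, macrophage and granulocyte sums differed in direction between the irradiated groups. The part of these cell types in the split was not tested.

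**Figure D5:**
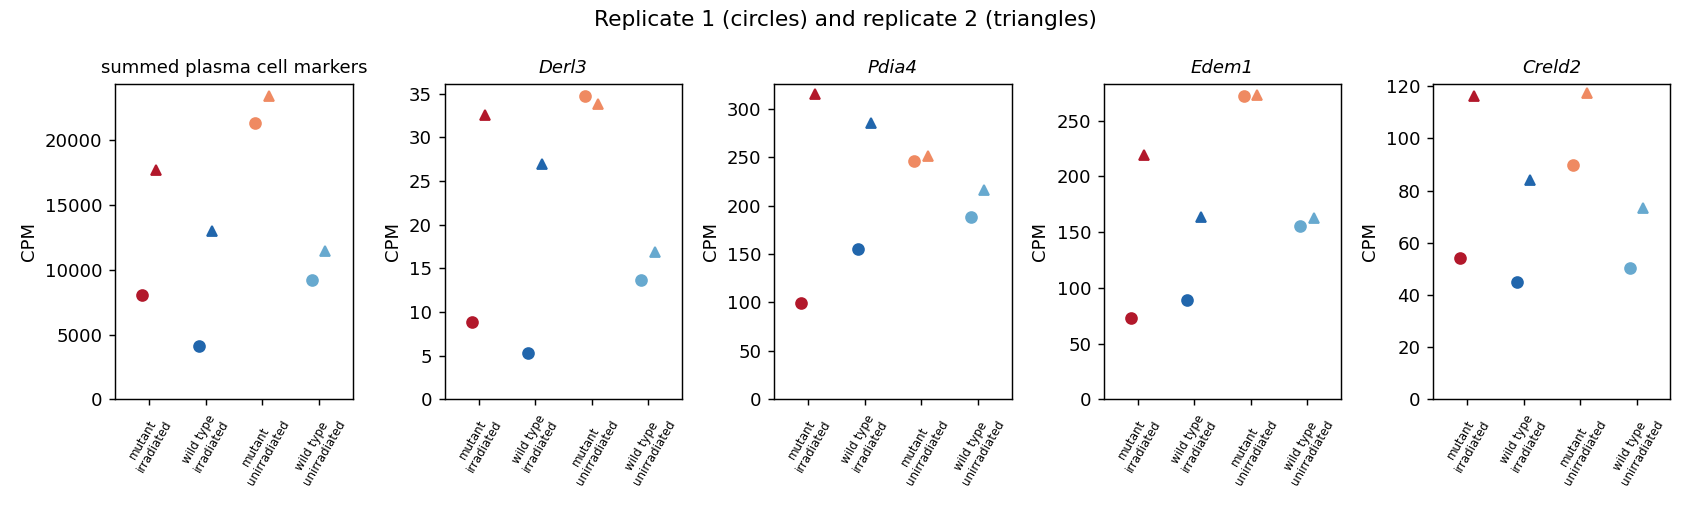
CPM of replicate 1 (circles) and replicate 2 (triangles) in the 4 groups, for the sum of 18 plasma cell markers and for Derl3, Pdia4, Edem1 and Creld2. In both irradiated groups the triangle lies above the circle in all 5 panels, and in unirradiated mutants the pairs lie closer together. Derl3, Pdia4, Edem1 and Creld2 were picked for this difference in the irradiated groups.

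Promoter elements and levels were set side by side as a description, with no test. In unirradiated mutants over wild type, the median of the log2 fold changes was 0.32 for the 11 genes with a match and 0.29 for the 14 with a window but no match. In irradiated over unirradiated wild type the medians were 0.00 with 5 of 11 above 0 for genes with a match, and 0.55 with 11 of 14 above 0 for genes without one. In irradiated over unirradiated mutants they were -0.08 with 2 of 11 above 0 and 0.36 with 9 of 14 above 0. Ssr1, Sec61b, Spcs1 and Ern1 were among the genes whose window held neither element, and Syvn1 holds ERSE at -44 to -26.

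A wider list of 71 other ER pathway genes was read in the same way, and all were tested. In unirradiated mutants over wild type 58 of 71 log2 fold changes were above 0 and their median was 0.17. In irradiated mutants over irradiated wild type 39 lay above 0 (median 0.03), in irradiated over unirradiated wild type 49 (0.21), in irradiated over unirradiated mutants 34 (-0.01), and in the difference of irradiation effects 23 (-0.14). With edgeR's fit of all 8 libraries and the low-count filter 0 of the 71 passed in any of the 5 comparisons. With no such filter edgeR called 2 higher (Sec62 and Ppp1r15a) and 1 lower (Ppib) in wild type after irradiation, against 2.67% and 2.69% of all genes. In mutants it called 4 higher (Ddit3, Ppp1r15a, Sec61g and Sec62) and 2 lower (Ppib and Txndc11), against 4.15% and 3.13%. Ddit3, Ppp1r15a and Sec61g were named after their values were seen. Ddit3 had 148 and 25.4 CPM in irradiated mutants and 23.2 and 27.2 CPM in unirradiated mutants. Its groups overlapped, and only replicate 1 of the irradiated mutants stood above the unirradiated ones. With the filter and without replicate 2 of irradiated mutants, Ddit3 was at 2.40, Ppp1r15a at 2.59 and Sec61g at 2.30 in mutants. The unfiltered fit of all libraries gave log2 fold changes of 1.57, 1.68 and 1.52. Without replicate 1, Ppp1r15a was at -2.11 in irradiated mutants over irradiated wild type. These estimates thus depended on which irradiated mutant library was kept. At an unadjusted edgeR p under 0.05 the counts were 4 higher and 0 lower, then 0 and 0, then 6 and 3, then 9 and 5, and 0 and 0, in the same order. As shares, the 2 irradiation comparisons gave 8.45% and 4.23% in wild type and 12.7% and 7.04% in mutants, against 8.69% and 8.57%, and 13.4% and 8.7%, of all genes. DESeq2 called 3 higher and 1 lower in wild type after irradiation, 4 higher and 2 lower in mutants, and 0 elsewhere. These were 4.23% and 1.41% of the list in wild type, against 2.74% and 4.23% of all genes, and 5.63% and 2.82% in mutants, against 6.3% and 5.02%. Limma-voom called 4 higher in unirradiated mutants over wild type and 1 higher and 1 lower in wild type after irradiation, where 1.89% of all genes were called higher in the first and 2.29% higher and 1.16% lower in the second. The edgeR fit of the compared libraries alone called 5 higher in the first comparison, against 2.27% of all genes, and 2 higher and 1 lower in the second, against 3.62% and 3.34%. It called 0 of the 33 genes in the second.

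Xbp1, the transcription factor made active by Ern1, had the smallest p of the wider list in the unirradiated genotype comparison. It had 331 and 334 CPM in unirradiated mutants and 138 and 167 CPM in unirradiated wild type, without overlap. The log2 fold change was 1.12 ± 0.37 (unadjusted p of 0.0162, adjusted p of 1 by edgeR), and 1.15 with an adjusted p of 0.00515 in the edgeR fit of the unirradiated libraries alone. Spliced and unspliced Xbp1 mRNA cannot be told apart in gene counts. In irradiated spleens it had 200.1 and 321 CPM in mutants and 134 and 201 CPM in wild type, at 0.64 ± 0.37. Lman1, a cargo receptor for export from the ER, was at 0.76 ± 0.29 in unirradiated mutants over wild type, Edem3, another of the Edem family, at 0.77 ± 0.30, and Creb3l2, a transcription factor of secretory cells, at 0.87 ± 0.36. Each had an edgeR adjusted p of 1 in the fit of all libraries. The edgeR fit of the unirradiated libraries alone gave adjusted p of 0.0279 for Lman1 and 0.0228 for Creb3l2. Limma-voom gave them 0.0442 and 0.0335, and Edem3 was called by neither.

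After irradiation the wider list also moved in both directions. Ppib, the ER prolyl isomerase cyclophilin B, had 39.0 and 41.9 CPM in irradiated and 100.4 and 105 CPM in unirradiated mutants, and 44.8 and 29.5 CPM in irradiated and 94.9 and 86.4 CPM in unirradiated wild type. All 4 irradiated libraries lay below all 4 unirradiated ones. Its log2 fold change was -1.34 ± 0.29 in mutants (adjusted p of 0.0894 by edgeR and 8.21e-04 by DESeq2) and -1.29 ± 0.29 in wild type (0.142 by edgeR and 0.00258 by DESeq2). Sec62, a translocon partner, had 528 and 218 CPM in irradiated and 119.6 and 99.9 CPM in unirradiated mutants, and 334 and 239.6 CPM in irradiated and 109 and 104 CPM in unirradiated wild type. It was at 1.76 ± 0.46 in mutants with an adjusted p of 0.107 by edgeR and of 0.00764 by DESeq2. Selenok, Kdelr2 and Srp9 had log2 fold changes of 1.11, 0.90 and 1.02 in mutants and of 0.998, 0.98 and 0.99 in wild type. All were called higher by DESeq2 and none by the edgeR fit of all 8 libraries with the filter. Txndc11 was at -1.24 in mutants and -0.92 in wild type. DESeq2 called it lower in mutants (adjusted p of 0.0168) and not in wild type.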

How the data were processed

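The authors deposited raw counts, 1 column for each of the 8 spleen libraries. The tools named are Subread, featureCounts and Trim Galore, and the builds are mm10 and hg38, per the submitters' processing notes. The sources used here give no versions, strand setting or handling of multiply mapped reads, so reads of overlapping genes could be counted for either gene. Per the labels' protocols, spleens were frozen and mRNA libraries were made from Trizol RNA. Another protocol in the labels describes human cells and was not used.

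Symbols came from GENCODE M21 and a table of gene names, and 52489 of 52636 identifiers had one. Totals were 12100784 to 19455470 counts per library. filterByExpr (min.count 10, min.total.count 15) kept 17327 genes. Counts were scaled by TMM and fitted with edgeR 4.0.16 (quasi-likelihood F test, R 4.3.3) over all 8 libraries with 1 term per group, 4 residual degrees of freedom and Benjamini-Hochberg adjustment over all genes at a threshold of 0.05. SEs are the absolute log2 fold change over the square root of F. The procedure was tested on simulated data. Alternatives were size factors of the RLE method, no low-count filter, DESeq2 1.42.0, limma-voom (limma 3.58.1) with library weights, a fit of the compared libraries alone, the replicate number as a block, and each library left out. CPM per kilobase used the union of exons. Groups and replicates came from the sample titles.

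The genes, their roles, the wider list and the markers were chosen with earlier results of these data known. Full values are given for the 3 genes with the smallest p in each comparison and for Hspa5, Ern1 and Atf6, and up to 4 genes per comparison and Xbp1 were to be named from the wider list. Sequences were copied from a RefSeq promoter table (GRCm38.p6) and searched with a Python 3.11.15 script.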

Additional observations from a re-analysis of the deposited data

How the results depend on the processing

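Of the counts of called genes and medians over the 33 genes, 129 values under the alternatives stayed close to those reported and 9 did not. In the unirradiated genotype comparison limma-voom called 1 gene and the fit of the compared libraries alone 2, against 0 in edgeR's fit of all libraries. In wild type after irradiation DESeq2 called 6, and in mutants 2, against 0. Leaving out 1 library at a time gave 0 to 6 calls for irradiation in wild type and 0 to 6 in mutants, and 0 to 0 in the other 3 comparisons. The medians then ranged over 0.20 to 0.48 for genotype without irradiation, -0.16 to 0.23 for genotype after it, 0.06 to 0.26 for irradiation in wild type, -0.41 to 0.12 for irradiation in mutants and -0.44 to -0.11 for the difference of irradiation effects. For genotype after irradiation, irradiation in mutants and the difference of irradiation effects, both extremes came from leaving out an irradiated mutant library. The lowest values (-0.16, -0.41 and -0.44) were without replicate 2 of that group. The highest (0.23, 0.12 and -0.11) were without replicate 1, and the cause was not tested. Where an arm is left with 1 library, it is assumed to vary like the other groups.

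Of single values, 331 kept their direction and call, 14 passed a threshold that the reported value did not, and 15 turned round. Ern1 between irradiated genotypes, reported at 0.0035, was -0.035 with no filter, -0.0017 with limma-voom, -0.0073 with the replicate block and -0.027 in the compared libraries alone. Leaving out replicate 1 of irradiated mutants gave -0.10 and replicate 1 of irradiated wild type -0.19, each unirradiated library gave -0.00078, -2.2e-05, -0.00046 or -0.0018, and the highest value was 0.22, without replicate 2 of irradiated wild type. Without replicate 2 of the irradiated mutants, Sdf2l1 was at -0.079, Pdia3 at -0.12 and Atf6 at 0.13 in the same comparison, against 0.82, 0.74 and -0.28 without replicate 1, and Atf6 was at 0.18 without replicate 1 of irradiated wild type. The difference of irradiation effects for Hspa5 was 0.12 without replicate 1 of unirradiated wild type and -0.30 without replicate 2.

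The labels give same-numbered libraries a number in common and do not say whether it marks a shared batch or day. Their deviations from the group means correlated at 0.047 to 0.578 between groups, highest between the irradiated ones, and with the replicate number as a block 0 of the 33 genes were called in all 5 comparisons.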
